A study of Mus musculus with 21 samples.

Results

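The sites described here are stretches of the mouse genome that carried a Foxa3 peak in established hepatocyte-like (iHep) cells and no Foxa peak of any kind 48 hours after infection, nor a Foxa1 or Foxa2 peak in iHep cells. They were found by pooling the 6 Foxa peak lists, merging peaks that overlapped by at least 1 bp, and taking each merged region with a peak in the iHep Foxa3 list and in none of the other 5. This gave 6908 regions, called gained sites below, of 29339 merged Foxa regions (23.5%). Since measured peaks chose them, the absence of a 48-hour Foxa3 peak at these sites is a definition and not a result, and a site missing from a list can still have been bound below the level at which a peak was called.

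Foxa1, Foxa2 and Foxa3 are forkhead transcription factors, and members of the family are known to bind their DNA motif in compacted chromatin ahead of other factors. Hnf4a is a nuclear receptor that drives the expression of many hepatocyte genes. All of them act in liver, where Foxa and Hnf4a proteins occupy many shared regulatory regions, and mouse fibroblasts given Hnf4a with 1 Foxa protein can be turned into iHep cells.

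The iHep cells came from embryonic fibroblasts of C57BL/6 mice, taken at 13.5 days post coitum and infected with retroviruses for Hnf4a and for Foxa3, Foxa1 or Foxa2. The 48-hour cells were the same kind of fibroblasts, with the same 3 pairs of viruses, collected 48 hours after infection. The cells infected with the Foxa3 virus are the Foxa3 line at both stages, and likewise for Foxa1 and Foxa2. All cells compared carried the Hnf4a virus. Each line and stage has 1 Foxa and 1 Hnf4a library made by chromatin immunoprecipitation followed by sequencing. The series also has a 48-hour sample with a tagged Foxa3 mutant named del2, and 8 input samples that were not analysed here. The labels do not say whether an iHep line was 1 clone, and viral and endogenous Foxa3 cannot be told apart in these lists. The lists hold no expression values, so the hepatocyte and fibroblast states could not be checked against marker genes.

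With 1 library per group there is no replicate spread, and no test between libraries was made. Shares carry 95% Wilson intervals, which reflect nothing but counting error, although peaks that lie close together are not independent. No read counts were used and the depth of each library is unknown. The iHep Foxa3 list is the longest of the Foxa lists, with 12661 peaks against 5690 in the 48-hour Foxa3 list and 3435 to 10330 in the 4 lists of Foxa1 and Foxa2. Its peaks are also the narrowest: they start at 166 bp, whereas the narrowest 48-hour Foxa3 peak is 334 bp wide and the narrowest peaks of the other lists are 310 to 326 bp wide. Sample titles carry a code of unknown meaning. It is R170 for the iHep Foxa3 line and R209 for the 48-hour Foxa3 line, so code and stage cannot be told apart. The iHep Foxa3 line also has another replicate number than the other lines and stages. Its Foxa3 and Hnf4a libraries share a code, whereas the Foxa2 and Hnf4a libraries of the iHep Foxa2 line do not. Protein, antibody and line also vary together among the Foxa lists and cannot be told apart.

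Gained sites made up 61.6% of the 11217 regions with an iHep Foxa3 peak, 54.6% of the iHep Foxa3 peaks and 44.2% of the bases those peaks cover (2012.7 of 4551.1 kb). Every gained site was a single peak. The remaining iHep Foxa3 peaks were 5353 peaks in 4003 regions that both Foxa3 lists hold and no Foxa1 or Foxa2 list does, called kept below, and 400 peaks in regions with Foxa1 or Foxa2. Of the kept regions, 29.4% joined at least 2 iHep Foxa3 peaks. Gained sites made up between 46.5% of the iHep Foxa3 peaks on chromosome 16 (interval 41.6% to 51.4%) and 62.3% on chromosome X (55.1% to 69.0%). Chromosome 6 stood next to X at 61.2% (57.6% to 64.8%).

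Gained sites were mostly narrow and of low score within the iHep Foxa3 list. Their median width was 224.5 bp (quartiles 184 and 323 bp, range 166 to 5899 bp), against 306 bp for kept peaks (207 and 500 bp, up to 10265 bp). The score is the authors' own value per peak, its scale is not stated in the sources used here, and it serves below to rank peaks within a list. Gained sites had a median score of 12.4 (quartiles 9.44 and 16.9, range 5.10 to 61.8), and kept peaks one of 18.6 (13.5 and 25.8, up to 96.1). Both distributions overlap widely.

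Divided at the score quartiles of the iHep Foxa3 list, 10.6, 14.6 and 20.9, gained sites were 77.2% of the lowest scoring 25% of peaks, 64.1% and 49.7% of the middle classes, and 27.3% of the highest scoring 25%. A set of 1606 gained sites reached the 334 bp of the narrowest 48-hour Foxa3 peak. How far the narrower peaks and greater length of the iHep list bear on the number of gained sites was not tested, but restricting the iHep list to peaks of at least that width left those 1606 sites, and cutting it by score to 5690 peaks left 2085.

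**Figure D1:**
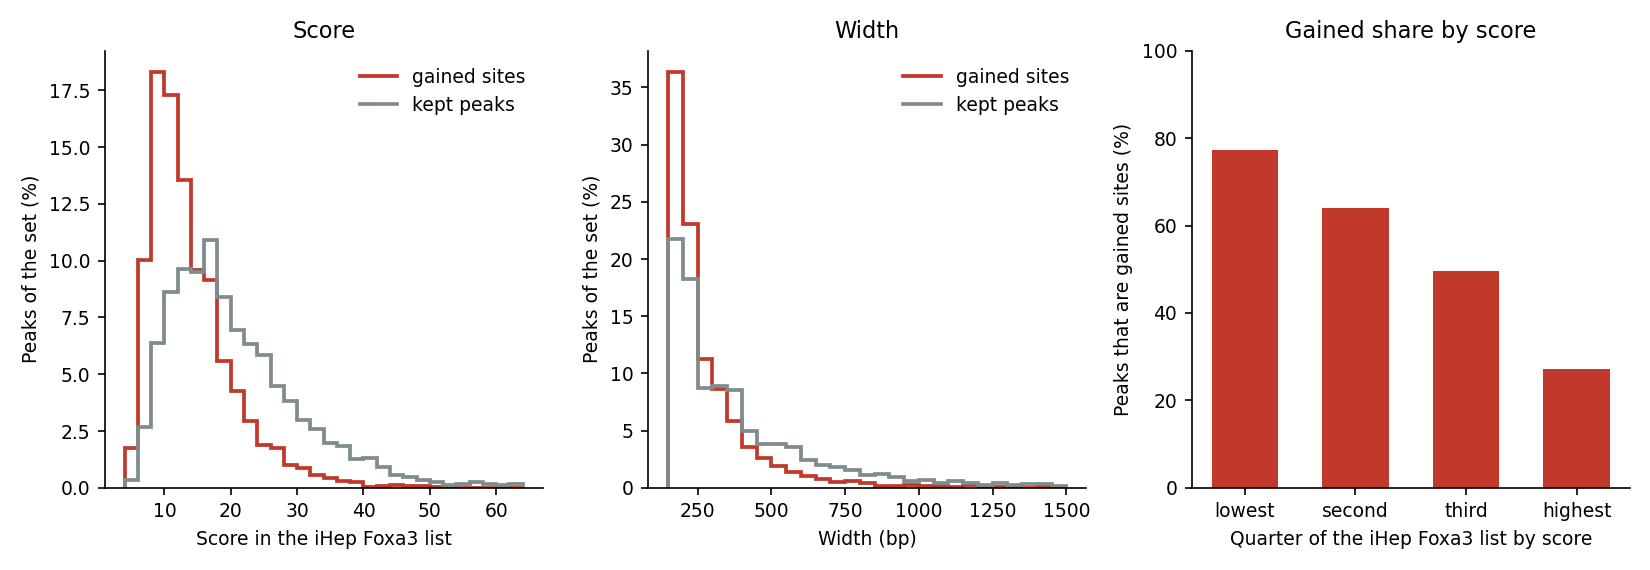
Left and middle: share of peaks (%) by score and by width (bp) for the 6908 gained sites and the 5353 kept peaks of the iHep Foxa3 list, with 31 gained sites and 117 kept peaks wider than the axis and 32 kept peaks scoring above it. Right: gained sites as a share (%) of the peaks in each score class of 25%, which falls from left to right between 77.2% and 27.3%.

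At the edge of the rule, the gained sites nearest to another list's peak lay on chromosome 13 at 32430255 to 32430444 (score 8.75) and chromosome 3 at 151854963 to 151855166 (score 9.95), which directly adjoined a 48-hour Foxa3 and an iHep Foxa2 peak with 0 bp between them. A site on chromosome 1 at 182708584 to 182708802 (score 17.9) lay 1 bp from a 48-hour Foxa3 peak. Just outside the rule, iHep Foxa3 peaks on chromosome 17 at 27110161 to 27110374, 28828012 to 28828198 and 33391871 to 33392037, with scores of 28.8, 12.3 and 16.9, overlapped a 48-hour Foxa3 peak by 1 bp.

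Many gained sites lay beside, though by definition not on, sites that Foxa3 already occupied at 48 hours. The distance between edges to the nearest 48-hour Foxa3 peak had a median of 28187.5 bp, with quartiles of 1250 and 125598 bp. Within 200 bp of such a peak lay 666 gained sites (9.64%), within 500 bp 1247 (18.1%) and within 1 kb 1613 (23.3%, interval 22.4% to 24.4%). Within 10 kb lay 2658 (38.5%, 37.3% to 39.6%) and within 100 kb 4911 (71.1%). The other 28.9%, 1997 sites, lay over 100 kb away, and the farthest was 6768991 bp from any 48-hour Foxa3 peak.

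The corresponding sites of Foxa2 lay farther from their early peaks. Of 5207 merged regions held by the iHep Foxa2 list alone, 1.42% (74 regions, interval 1.13% to 1.78%) lay within 1 kb of a 48-hour Foxa2 peak and 10.5% (9.66% to 11.3%) within 10 kb, at a median distance of 96837 bp. The 48-hour Foxa2 list, with 6827 peaks, is longer than that of Foxa3. The 2 iHep lists also differ in width and spacing of peaks. Of iHep Foxa3 peaks, which start at 166 bp, 34.9% were followed by another within 500 bp. Among iHep Foxa2 peaks, which start at 325 bp, it was 1.12%. A peak called in pieces and a separate neighbouring site cannot be told apart here, so the contrast cannot be assigned to the proteins. Gained Foxa3 sites were also rarely near early peaks of the other proteins, with 1.19% within 1 kb of a 48-hour Foxa1 peak and 1.71% within 1 kb of a 48-hour Foxa2 peak.

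**Figure D2:**
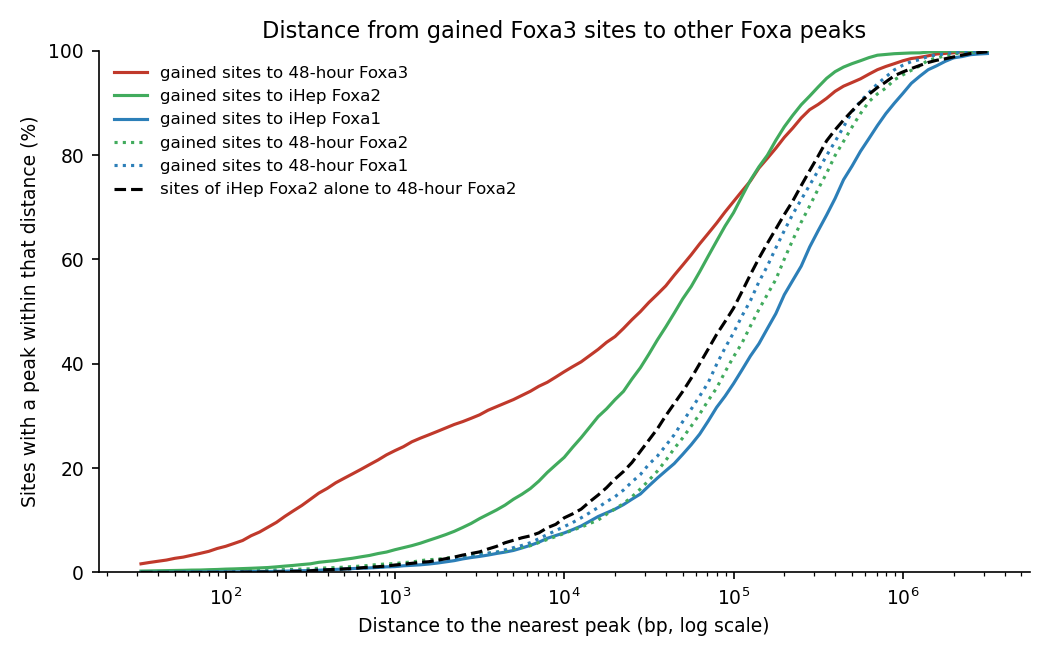
Share of sites (%) with a peak of the named list within a given distance between edges (bp, log scale), for the 6908 gained Foxa3 sites and, dashed, for the 5207 regions of iHep Foxa2 alone. The curve to 48-hour Foxa3 peaks reaches 23.3% at 1 kb, while the other curves lie between 1.11% and 4.36% there.

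The neighbouring early peak was usually one that Foxa3 still occupied. Of the 1613 gained sites within 1 kb, 1465 (90.8%) had a nearest 48-hour Foxa3 peak that overlapped an iHep Foxa3 peak. Among all 48-hour Foxa3 peaks the share was 74.2%, but this counts peaks, while the 90.8% counts gained sites. A 48-hour peak nearest to several gained sites thus enters the 90.8% more than once. The 1613 sites flanked 1310 different 48-hour peaks, 23.0% of the 48-hour list, and 258 of these peaks were nearest to at least 2 gained sites. Gained sites lay on both sides, 823 at the higher and 790 at the lower coordinate. Of the 1467 48-hour Foxa3 peaks without an iHep Foxa3 peak, 145 (9.88%) had a gained site within 1 kb.

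Low scoring gained sites lay nearer to early peaks than high scoring ones. From the lowest to the highest scoring 25% of the list the median distance was 8285, 25720, 48712 and 57646.5 bp, and the share within 1 kb was 29.6%, 25.05%, 17.1% and 13.2%. The median width of the gained sites in these classes was 212, 217, 231 and 309 bp. Grouped by distance instead, gained sites up to 1 kb, 1 to 10 kb, 10 to 100 kb and over 100 kb from a 48-hour Foxa3 peak had median scores of 11.1, 10.5, 13.6 and 13.5.

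Gained sites were closely packed. The gap to the next iHep Foxa3 peak had a median of 411 bp for gained sites and 235 bp for kept peaks, and was up to 1 kb for 4211 gained sites (61.0%, interval 59.8% to 62.1%) and for 67.0% of kept peaks (65.7% to 68.2%). Of those 4211, the next peak was another gained site for 2910, a kept peak for 1204 and a peak in a region with Foxa1 or Foxa2 for 97. The smallest gap was 52 bp. Gaps of 50 to 99 bp were the most frequent class of 50 bp and held 900 gained sites (13.0%) and 19.5% of kept peaks.

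Such spacing marked the iHep Foxa3 list as a whole. Of its peaks 34.9% were followed along the chromosome by another within 500 bp, against 7.84% in the 48-hour Foxa3 list and 0.437% to 1.12% in the lists of Foxa1 and Foxa2. The Hnf4a list of the same iHep line also had more such peaks, 17.4%, than those of the iHep Foxa1 and Foxa2 lines, 1.14% and 1.53%, while the 48-hour Hnf4a lists had 36.6% to 39.7%. Both lists of the iHep Foxa3 line carry the code R170 and have the narrowest peaks among the iHep lists of that factor, from 166 bp for Foxa3 and from 156 bp for Hnf4a, where the iHep Hnf4a lists of the Foxa1 and Foxa2 lines start at 200 and 272 bp. The part of peak calling in this spacing was not tested. When iHep Foxa3 peaks of at least 334 bp alone were used, the next peak lay within 1 kb for 43.0% of gained sites, and in the upper 50% of the list by score for 30.3%.

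**Figure D3:**
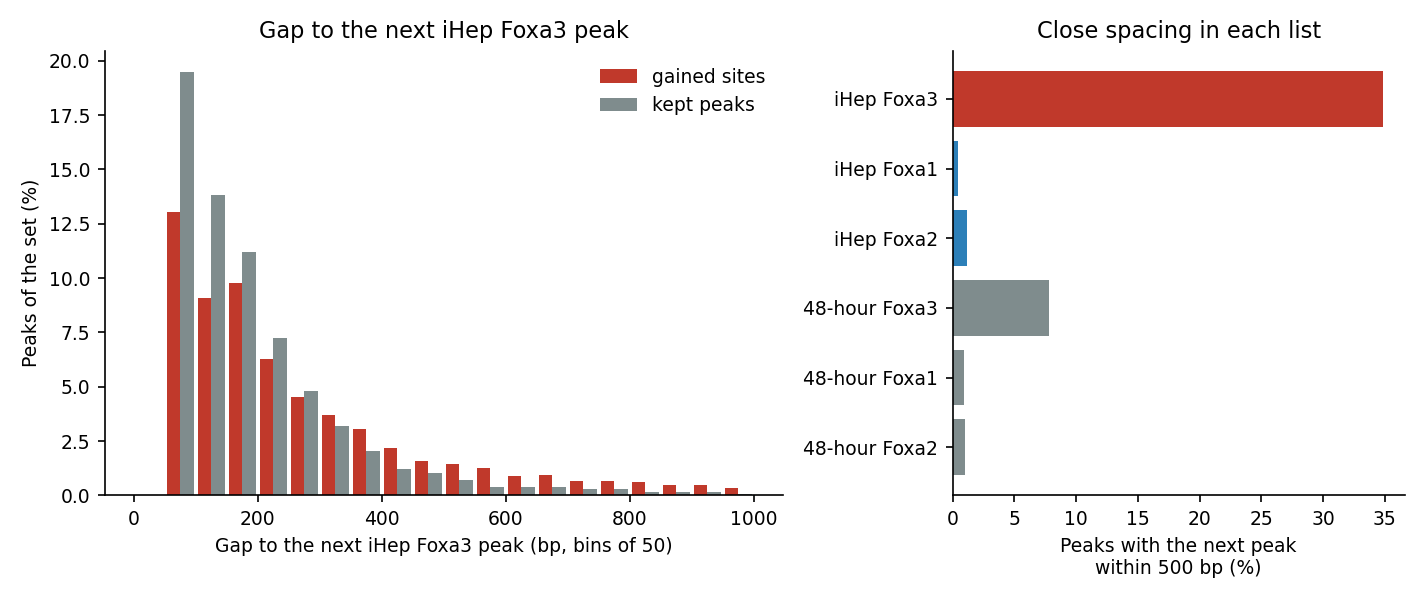
Left: share (%) of the 6908 gained sites and the 5353 kept peaks by the gap to the next iHep Foxa3 peak (bp, bins of 50 bp, gaps up to 1 kb shown). Right: share (%) of the peaks of each Foxa list whose next peak lies within 500 bp, 34.9% in the iHep Foxa3 list and at most 7.84% in the other lists.

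Joined across gaps of up to 500 bp, the iHep Foxa3 peaks formed 8245 chains, of which 4127 held gained sites alone. Single gained sites made up 46.8% of gained sites (3235), a further 30.3% (2090) stood in 892 chains of at least 2 gained sites and no other peak, and 22.9% (1583) shared one of 1111 chains with other iHep Foxa3 peaks. A peak within 1 kb on each side was found for 969 gained sites. Sites far from early binding were less often close to another iHep Foxa3 peak: the next one lay within 1 kb for 93.1%, 64.4%, 44.5% and 51.7% of gained sites in the 4 distance classes from up to 1 kb to over 100 kb. In the first of these classes the 48-hour neighbour itself overlapped an iHep Foxa3 peak in 90.8% of cases.

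Some gained sites formed long runs. With gaps of up to 2 kb between gained sites there were 4734 runs, 1338 of at least 2 sites, which held 50.8% of gained sites, and 11 of at least 10 sites, which held 139 (2.01%). Outside chromosome 18, the run with the most sites lay on chromosome 4 at 11085833 to 11103162 (mm9). There 20 gained sites with scores of 6.58 to 17.8 followed each other over 17.3 kb. That stretch held no peak of any other Foxa or Hnf4a list. The next held 14 gained sites each, both over 12.1 kb on chromosome 6, at 48779999 to 48792113 with scores of 5.87 to 22.1 and at 52198052 to 52210124 with scores of 8.06 to 16.9.

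These runs differed in Hnf4a. In the run at 52198052, 8 of the 14 gained sites overlapped an iHep Hnf4a peak of the Foxa3 line, against 2 of 14 at 48779999 and 0 of 20 on chromosome 4. Over all 11 runs of at least 10 gained sites, 21 of 139 sites did so, against 5.95% of all gained sites. Most of these 21 lay in the run at 52198052 and its neighbour on chromosome 6 described below, with 8 and 10. The pooled share thus rests mainly on that stretch and does not describe long runs in general. The runs that came next in number of sites, also named after their values were seen, were of 13 sites on chromosome 1 at 155749009 to 155759160, 13 sites on chromosome 6 at 52174055 to 52190469 and 12 sites on chromosome 19 at 5812430 to 5821012. Those on chromosomes 1 and 19 had 0 sites with Hnf4a of the Foxa3 line. The one on chromosome 6 ended 7.6 kb before the run at 52198052. In it 10 gained sites overlapped an Hnf4a peak of the Foxa3 line, and it also held 17 iHep Hnf4a peaks of that line, 1 kept peak and 1 peak of the 48-hour Foxa3 list. No Hnf4a peak of the Foxa1 or Foxa2 line, at either stage, lay in any of the runs named here.

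**Figure D4:**
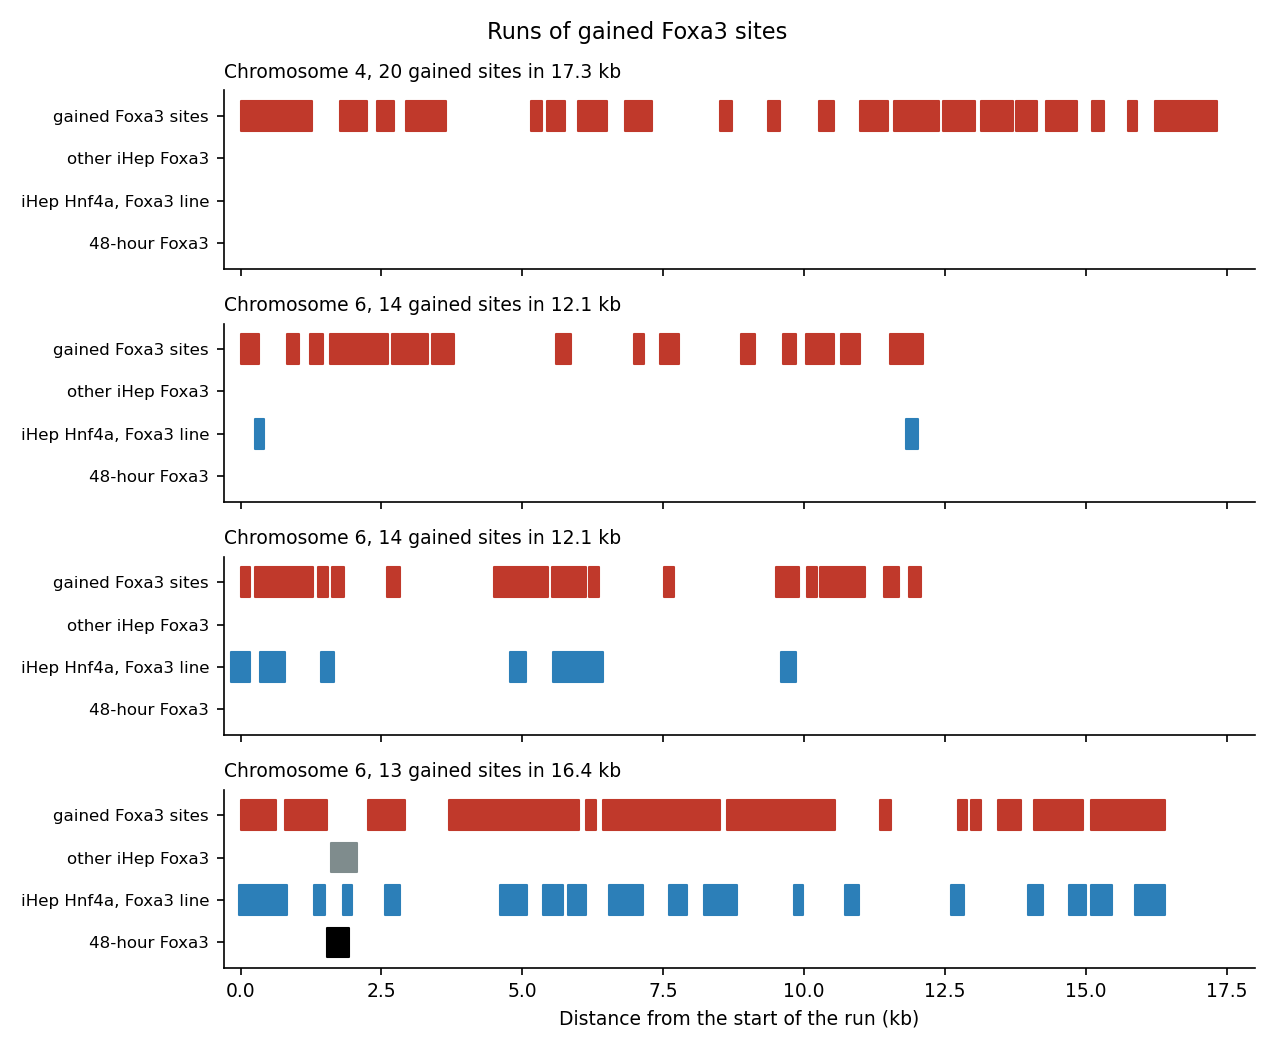
Peaks of the named lists along 4 runs of gained sites, as distance from the start of each run (kb), with each box drawn to the width of its peak. From top to bottom they hold 20, 14, 14 and 13 gained sites and 0, 2, 6 and 17 iHep Hnf4a peaks of the Foxa3 line.

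Among gained sites outside chromosome 18, the highest score, 54.7, was found at chr14:63380211-63381111, a site 901 bp wide and 56 bp from a 48-hour Foxa3 peak. The pair chr8:125566458-125567306, with a score of 51.4, and chr8:127473326-127473661, with 51.2, followed, which lay 21.7 and 51.2 kb from the nearest 48-hour Foxa3 peak. The next were chr1:92811363-92813777 (score 50.9), chr9:77602225-77604528 (49.6), chr3:51906237-51907416 (48.8) and chr13:43655161-43655715 (48.4). Of these, the sites on chromosomes 9, 3 and 13 lay 153.6, 164.7 and 161.0 kb from early Foxa3. The sites chr6:37389686-37392151 (48.2), chr11:40567930-40568773 (48.0) and chr5:99679862-99682263 (47.3) completed the 10. The chromosome 5 site lay 785.3 kb from any 48-hour Foxa3 peak. The next iHep Foxa3 peak was a gained site for 8 of these 10, at gaps of 60 to 1190 bp, and a kept peak for the sites on chromosomes 14 and 6. Among sites over 100 kb from early Foxa3, also outside chromosome 18, the 5 highest were those on chromosomes 9, 3, 13 and 5 and chr1:166387291-166388507 (score 46.5, 208.2 kb away).

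Gained sites lay near peaks of the other Foxa proteins more often than kept peaks did. By the rule neither set overlaps a Foxa1 or Foxa2 peak. For kept peaks the rule also excluded Foxa1 or Foxa2 peaks that touched the joined 48-hour Foxa3 peak. It thus cleared a wider stretch around kept peaks, and its part in the differences below was not tested. An iHep Foxa2 peak lay within 10 kb of 22.1% of gained sites (interval 21.1% to 23.1%), 15.0% of kept peaks (14.1% to 16.0%) and 11.5% of regions held by the 48-hour Foxa3 list alone (9.89% to 13.3%). Gained sites exceeded kept peaks by 7.02 percentage points (5.65 to 8.39, Newcombe's 95% interval, counting error only). As the rule used the iHep Foxa2 list to choose both sets, the intervals given here describe the shares and test no difference. The same order held in every score class, with 25.2%, 21.3%, 18.4% and 21.6% of gained sites and 16.1%, 12.6%, 14.6% and 16.3% of kept peaks from the lowest to the highest scoring 25%. The intervals did not overlap in any class, but nearly met in the third, at 16.6% to 20.4% for gained sites and 12.9% to 16.4% for kept peaks.

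Other lists gave differences in the same direction that were smaller in percentage points. The lists differ in length, with 3435 peaks for iHep Foxa1 and 10330 for iHep Foxa2. The sizes of these differences therefore do not rank the proteins. Within 10 kb of an iHep Foxa1 peak lay 7.57% of gained sites (6.97% to 8.22%) and 4.35% of kept peaks (3.84% to 4.93%). For 48-hour Foxa1 peaks the shares were 8.79% of gained sites (8.14% to 9.48%) and 6.73% of kept peaks (6.08% to 7.43%). For 48-hour Foxa2 peaks they were 7.48% of gained sites (6.89% to 8.13%) and 5.74% of kept peaks (5.14% to 6.39%). Within 1 kb, 4.36% of gained sites had an iHep Foxa2 peak and 1.11% an iHep Foxa1 peak, against 2.02% and 0.374% of kept peaks.

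Hnf4a was not used to choose the sites. In iHep cells of the Foxa3 line, 411 gained sites (5.95%, interval 5.42% to 6.53%) overlapped an Hnf4a peak by at least 1 bp, against 3.8% of all 29339 merged Foxa regions. The Hnf4a list of the Foxa1 line reached 66 gained sites (0.955%, 0.752% to 1.21%), against 2.02% of all regions, and that of the Foxa2 line 95 (1.38%, 1.13% to 1.68%), against 2.76%. Gained sites thus stood above all regions for Hnf4a of their own line and below them for Hnf4a of the other lines. The second part depended on width. Among gained sites of at least 334 bp the share was 1.43% (0.956% to 2.14%) for the Foxa1 line. For the Foxa2 line it was 2.55% (1.89% to 3.44%). Both intervals include the share of all regions, which was not limited by width. All regions include the gained sites, and only 11217 of them have an iHep Foxa3 peak. Counted by region, each other class with an iHep Foxa3 peak held Hnf4a of the Foxa3 line more often than gained sites (below). Those regions join peaks of several lists, whereas every gained site is a single peak. Counted per peak, kept peaks stood at 7.53%, and their order to gained sites depended on the matching (below). Being above all regions was therefore not particular to gained sites. Line and title code cannot be told apart in this comparison. At 48 hours few gained sites held Hnf4a: 8 in the Foxa3 line (0.116%, against 0.16% of all regions), 12 in the Foxa1 line (0.174%, against 0.31%) and 12 in the Foxa2 line (0.174%, against 0.266%). The 48-hour Hnf4a lists are short, with 370, 418 and 453 peaks. The single del2 peak overlapped 0 gained sites.

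Among other region classes, Hnf4a of the iHep Foxa3 line was found at 9.92% of kept regions (9.03% to 10.9%), 1.32% of regions of the 48-hour Foxa3 list alone (0.839% to 2.08%) and 1.29% of regions of the iHep Foxa2 list alone (1.01% to 1.63%). Regions that the iHep Foxa3 list shares with a Foxa1 or Foxa2 list but not with the 48-hour Foxa3 list numbered 175, and 16.6% of them (11.8% to 22.8%) held it. Of the 131 regions in both Foxa3 lists and a Foxa1 or Foxa2 list, 26.7% (19.9% to 34.9%) did. The regions of iHep Foxa2 alone held Hnf4a of the Foxa2 line in 3.19% of cases (2.74% to 3.70%). For Hnf4a of the Foxa1 line it was 1.90% (1.56% to 2.31%). Both shares were higher than at gained Foxa3 sites as a whole, but iHep Foxa2 peaks are at least 325 bp wide. Among gained sites of at least 334 bp the shares were 2.55% (1.89% to 3.44%) and 1.43% (0.956% to 2.14%). These intervals overlap those of the Foxa2 regions.

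Whether gained sites held less Hnf4a than kept ones depended on how peaks were matched and on their score. Counted per peak, 5.95% of gained sites and 7.53% of kept peaks (6.85% to 8.27%) overlapped an Hnf4a peak of the Foxa3 line, a difference of -1.58 percentage points (-2.49 to -0.686). Matched by centres up to 200 bp apart, 4.92% of gained sites and 4.75% of kept peaks held it (difference 0.177 points, -0.597 to 0.936), and among peaks of at least 334 bp 13.3% of gained sites and 12.1% of kept peaks did (difference 1.19 points, -0.895 to 3.33). Within score classes by overlap of 1 bp, gained sites held 4.50%, 5.68%, 6.91% and 8.91%, and kept peaks 2.25%, 4.57%, 5.49% and 11.9%, from lowest to highest. In the lowest scoring 25% gained sites lay just above kept peaks, with intervals of 3.749% to 5.40% for gained sites and 1.35% to 3.748% for kept peaks, opposite in direction to the difference over all peaks. In the other classes the intervals overlapped. Gained sites with Hnf4a were wider, with a median of 342 bp against 221 bp for those without, and their median score was 13.6 against 12.3 for those without.

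**Figure D5:**
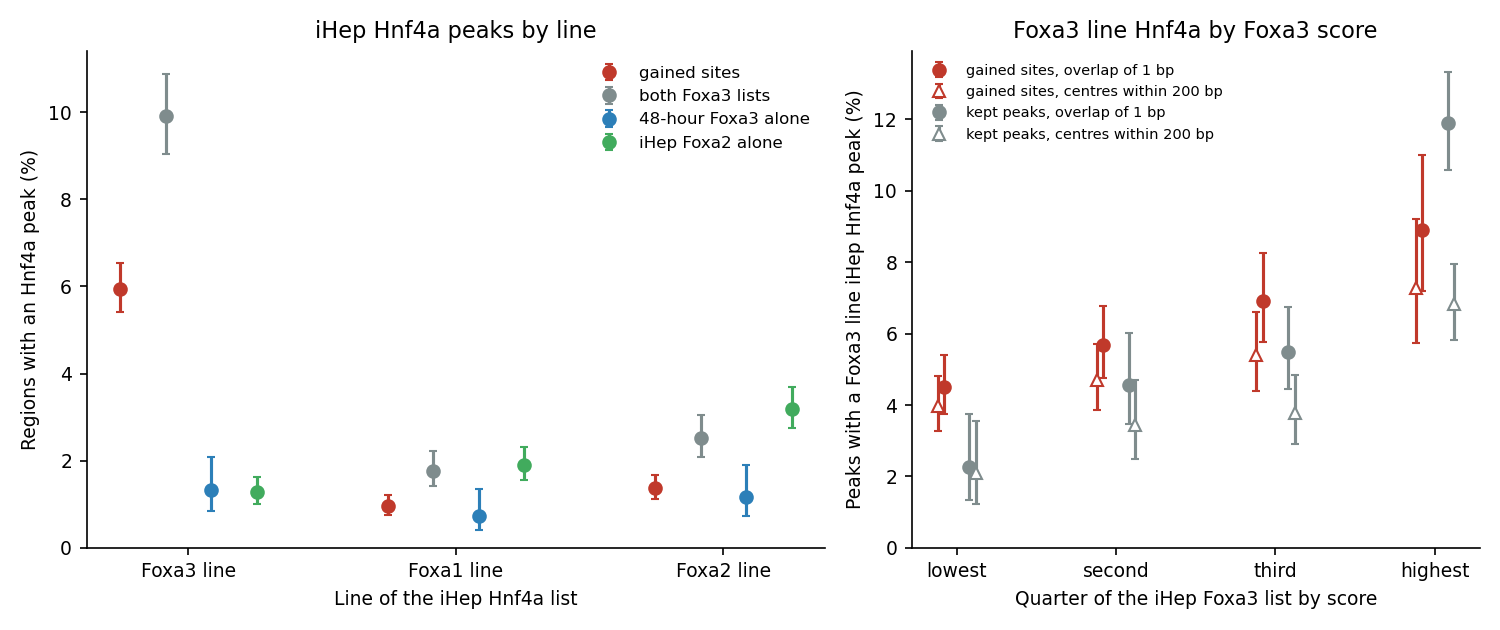
Left: share (%) of gained sites, kept regions (both Foxa3 lists), regions of the 48-hour Foxa3 list alone and regions of the iHep Foxa2 list alone with an iHep Hnf4a peak of each line. Right: share (%) of gained sites and kept peaks with an iHep Hnf4a peak of the Foxa3 line by score class of 25%, by overlap and by distance between centres; bars are 95% Wilson intervals, and in the highest class gained sites stand at 8.91% and kept peaks at 11.9% by overlap, and at 7.29% and 6.82% by centres.

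Hnf4a of the Foxa3 line showed no steady order with distance from early Foxa3. The share was 6.51% (5.41% to 7.82%) for gained sites up to 1 kb from a 48-hour Foxa3 peak, 7.46% (6.02% to 9.22%) at 1 to 10 kb, 4.84% (4.03% to 5.80%) at 10 to 100 kb and 5.96% (5.003% to 7.08%) beyond 100 kb. Where the peaks overlapped, the centres of the gained site and of the Hnf4a peak lay a median of 84.5 bp apart. A further 512 gained sites without overlap had an Hnf4a peak of the Foxa3 line within 1 kb.

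Most gained sites with Hnf4a had it in 1 line. Of the 472 gained sites with an iHep Hnf4a peak of any line, 348 (73.7%, interval 69.6% to 77.5%) had that of the Foxa3 line alone, 19 that of the Foxa1 line alone and 35 that of the Foxa2 line alone. All 3 lines had an Hnf4a peak at 30 (6.36%, 4.49% to 8.93%). Kept peaks were divided in much the same way, with 332 of 469 (70.8%, 66.5% to 74.7%) in the Foxa3 line alone and 26 in all 3. Of the 411 gained sites with Hnf4a of the iHep Foxa3 line, 7 also had it in that line at 48 hours.

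Seen from the Hnf4a lists, 417 of the 2506 Hnf4a peaks of the iHep Foxa3 line lay at gained sites (16.6%, 15.2% to 18.1%), 480 at kept regions (19.2%) and 1561 at no iHep Foxa3 peak (62.3%). Gained sites took 60 of the 1580 Hnf4a peaks of the iHep Foxa1 line (3.798%, 2.96% to 4.86%) and 87 of the 2485 of the iHep Foxa2 line (3.50%, 2.85% to 4.30%). The Hnf4a peaks of the Foxa3 line had near equal scores in all 3 places, with medians of 10.03 at gained sites, 10.3 at kept regions and 10.1 away from Foxa3.

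Outside chromosome 18, the highest scoring gained site with Hnf4a of the Foxa3 line was chr6:37389686-37392151, the only one of the 10 sites named above for their score with it. It was followed by chr3:94561525-94562040 (score 44.6), chr9:78023731-78024785 (44.5), chr14:99697918-99700875 (42.9) and chr3:94460596-94462795 (42.8). These 4 lay 66.6 to 344.6 kb from any 48-hour Foxa3 peak, and none had Hnf4a of another line. The highest scoring gained sites with iHep Hnf4a of all 3 lines, again outside chromosome 18, scored lower. They were chr19:56623099-56623512 (32.8), chr19:5689786-5690112 (21.1), chr9:44607444-44607868 (30.5), chr11:8564162-8564661 (20.6) and chr3:52073719-52073996 (18.2). The last lay 1.1 kb from a 48-hour Foxa3 peak and the others 31.5 to 346.1 kb.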

How the data were processed

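Peak lists of chromatin immunoprecipitation libraries were used as deposited, 1 list per sample for 13 of 21 samples. Each gives a chromosome, start, end, name and score per peak. The deposited score is the authors' own, and the sources used here do not say what it measures. Per the submitters' processing notes the build was mm9 and the tools named are BWA 0.6.2, MACS2 2.1.0 and bedtools 2.16.2, without roles. Titles gave each sample's stage, line and antibody. The del2 title says 48 hours, its stage label iHep.

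Positions count from 1. Overlap, merging and distances between edges were computed in pandas 2.3.3, NumPy 2.4.6 and SciPy 1.17.1 under Python 3.11.15 (figures: matplotlib 3.10.9), and the code was tested on simulated data. Intervals are Wilson's, and Newcombe's for differences. The regions named are the 10 highest scoring gained sites, the 3 runs with the most gained sites and 3 on each side of the rule. The 3 runs next in number of gained sites were added after their values were seen. Also named are the 5 highest scoring gained sites with Hnf4a of the Foxa3 line and the 5 with Hnf4a of all 3 lines. The 5 highest scoring over 100 kb from early Foxa3 were named as well. No named region lies on chromosome 18. Members and comparisons were chosen with earlier results of these data known. An mm9 genome or gene annotation was not used here, so no gene or sequence is given.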

Additional observations from a re-analysis of the deposited data

How the results depend on the processing

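No paired analysis was possible because each group has 1 library. Gained sites numbered 7573 when peaks were joined by an overlap of 50% of the shorter peak, 9337 with centres within 200 bp and 6794 on autosomes. They numbered 3853 with peaks up to 500 bp apart merged, 3042 with 2 kb, 3768 in the upper 50% of each list by score, 2438 with the iHep Foxa3 list alone so reduced, 2085 with it cut to the length of the 48-hour list, and 1606 with iHep peaks of at least 334 bp, a setting chosen after seeing the data. The share within 1 kb of a 48-hour Foxa3 peak was 17.5% between centres, 26.7% with gained sites up to 500 bp apart counted once, 15.7% for the upper 50% by score and 13.4% with the upper 50% of the 48-hour list; within 10 kb the last 3 settings gave 40.0%, 24.8% and 26.0%. The next iHep Foxa3 peak lay within 1 kb for 15.1% after merging at 500 bp, 30.3% in the upper 50% by score and 43.0% among peaks of at least 334 bp.

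Hnf4a of the Foxa3, Foxa1 and Foxa2 lines was at 5.28%, 0.608% and 0.927% of gained sites with 50% overlap, at 4.92%, 0.594% and 0.796% with centres within 200 bp, at 13.4%, 2.61% and 3.72% within 1 kb, and at 3.01%, 0.420% and 0.767% in the upper 50% of each Hnf4a list. Among peaks of at least 334 bp these shares were 13.3%, 1.43% and 2.55%. For the Foxa3 and Foxa2 lines they were 7.63% and 1.93% in the upper 50% of the iHep Foxa3 list and 3.79% and 1.01% with Hnf4a lists of equal length, and for the Foxa3 line 6.83% with close sites counted once. The Foxa3 line gave the highest share in each of these settings.

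The differences below were computed under settings chosen after seeing the data. For Hnf4a of the Foxa3 line, gained sites minus kept peaks changed sign to 0.177 points with centres within 200 bp, 0.079 within 1 kb and 1.19 among peaks of at least 334 bp, and was -2.84 with close peaks counted once. For iHep Foxa2 within 10 kb it stayed positive, at 3.87 points with the upper 50% of the Foxa2 list, 3.99 with the upper 50% of the iHep Foxa3 list, 5.26 with close peaks counted once and 11.1 among peaks of at least 334 bp. The iHep Foxa2 list took part in the rule, and the causes of these shifts were not tested. Depth is unknown, so absence from a list shows no absence of binding.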
